A study of Mus musculus with 68 samples.

Results

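The genes described here encode the proteins of the cytosolic ribosome, measured in 68 single cells of the mouse cerebral wall. The members were taken by symbol: every probe set of the microarray whose single gene symbol was Rpl or Rps followed by a number, or Rplp0, Rplp1, Rplp2 or Rpsa, leaving out the Rps6k kinases and the pseudogenes. The rule used no measured value. It found 106 of the 45101 probe sets, which stood for 50 of the 18194 genes with a probe set of their own. Of these genes, 26 had an Rpl symbol and 24 an Rps symbol. Another 110 probe sets named a ribosomal protein gene together with other genes, as near-identical copies are common in this family, and these were not counted as members. For this reason Rpl3, Rpl5, Rpl10, Rpl26, Rpl36a, Rplp1 and Rps27a, among others, had no probe set of their own. In all, 29 ribosomal protein symbols occurred only on such shared probe sets and are missing from the members. 1 member fits the symbol rule only by its letters, since Rps19bp1 encodes a protein that binds Rps19 and not a subunit of the ribosome.

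All cells came from the cerebral wall of CD1 mice, at E11 from its dorso-lateral part, and each microarray held the amplified cDNA of 1 cell. The E11 group had 30 cells and the E16 group 28 cells, the latter from pieces of ventricular and subventricular zone, and both had been chosen as progenitors by marker genes but carried no cell type in their labels. 3 cells were apical progenitors (APs) of E12, and 3 were APs from neurospheres, grown for 3 days from E11 cerebral wall with FGF2 and EGF. The last 4 cells, the NICD/p18 APs, had received pCAG-NICD and pEF-p18 together by electroporation at E11 and were isolated at E14, 3 days later. NICD is the intracellular domain of Notch1, driven here by the ubiquitous CAG promoter, and p18 is the cyclin-dependent kinase inhibitor Cdkn2c, driven by the EF promoter. The E12 and neurosphere APs had been picked as positive for Ki67, and the NICD/p18 APs by Egfp and Ttyh1 in the absence of Tbr2, with Ki67 then checked to be absent, so that cell cycle transcripts entered the choice of the first but not of the last. Which embryo, litter or culture a cell came from is not labelled, so each group counted as 1 sample: no test between groups was made, no p-value is given, and each SD is over cells. A gene was called past the fold when its mean log2 signal differed by at least 1 between groups and its higher mean reached the signal of a spike RNA added at 20 copies per cell.

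The E11 and E16 cells were grouped within each stage by clustering on fixed markers that included no ribosomal protein gene. At E11, 24 cells were AP-like, 3 were like intermediate progenitors (IP-like, with Eomes, Gadd45g, Hes6 and Neurog2 among their leading genes) and 3 were neuron-like. At E16, 17 cells were AP-like, 8 IP-like, 1 neuron-like and 2 were left unnamed. Interneuron markers did not reach the 20-copy signal in any cell, and markers of blood, microglia, vessel and mesenchyme did so in at most 2 genes of a list in any cell. 2 of the 4 NICD/p18 APs, M5K and M6C, carried 8 of 12 neuron markers at that signal, against 1 to 4 in M5A, M6H and the 6 cells of the E12 and neurosphere groups. The 10 arrays of the E12, neurosphere and NICD/p18 groups had been scaled to a trimmed mean signal of 500 before deposit, whereas those of the other 58 cells lay between 47.5 and 297.5. Processing and condition cannot be told apart across that line, and the 3 smaller groups were compared only among themselves.

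The ribosome is the particle that translates mRNA into protein. Its small 40S subunit reads the mRNA and its large 60S subunit forms the peptide bonds, and the proteins of both are needed in fixed proportion. Their mRNAs are among the most abundant of a dividing cell. They begin at a cytosine followed by a run of pyrimidines, the TOP motif, through which mTOR and the binding protein Larp1 set their translation together, and ETS-family factors bind many of their promoters. Growing progenitors need many ribosomes, and haploinsufficiency of Rps19 or Rpl11 underlies Diamond-Blackfan anaemia in humans.

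The starts of 8 members are printed. Rplp2 and Rpl35 are shown as starts with a pyrimidine run of the TOP kind. Rps15, Rpl37 and Rpsa are members with large differences between groups, and Rps24, Rps4x and Rpl38 are members that varied together with others. Each run is 40 bases before and 20 after the annotated start, on the strand of the gene, from RefSeq on GRCm38.p6. Capitals mark CTTTC, a pyrimidine run of the TOP kind on the strand of the gene, and CTTCCG, the core of an ETS site. They also mark GAAAG and CGGAAG, which are these letters on the other strand. GAAAG, as in Rps4x, is not a pyrimidine run of the transcript.
Rplp2 (chr7:141447611-141447670, plus strand): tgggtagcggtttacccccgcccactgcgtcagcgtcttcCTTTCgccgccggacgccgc
Rpl35 (chr2:39005112-39005171, minus strand): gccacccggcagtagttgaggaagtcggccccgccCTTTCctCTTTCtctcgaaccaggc
Rpl38 (chr11:114668540-114668599, plus strand): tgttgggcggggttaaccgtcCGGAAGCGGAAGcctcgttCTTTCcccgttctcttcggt
Rps15 (chr10:80292391-80292450, plus strand): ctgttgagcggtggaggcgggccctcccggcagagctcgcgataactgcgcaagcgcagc
Rpl37 (chr15:5116573-5116632, plus strand): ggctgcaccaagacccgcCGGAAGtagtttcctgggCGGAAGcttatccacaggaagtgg
Rpsa (chr9:120127726-120127785, plus strand): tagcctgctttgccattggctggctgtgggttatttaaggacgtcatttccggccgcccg
Rps24 (chr14:24490638-24490697, plus strand): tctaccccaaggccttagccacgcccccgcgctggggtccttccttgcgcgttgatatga
Rps4x (chrX:102189372-102189431, minus strand): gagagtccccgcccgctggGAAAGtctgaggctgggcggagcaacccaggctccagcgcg

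In Rplp2 and Rpl38 the CTTTC began at the first base of the transcript, and in Rpl35 it occurred on both sides of the start. A start was held for 44 of the 50 members, and those of Rpl7, Rpl8, Rps29, Rps14, Rps20 and Rps4l were not used here. Within 50 bases on either side of the start, CTTTC stood on the strand of the gene in 20 of the 44 members (45.5%), against 3934 of 27025 genes (14.6%). CTTCCG on either strand was found in 18 of the 44 (40.9%), against 10.4% of all genes. Such a match is a description of the letters and not of a factor at the site.

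**Figure D1:**
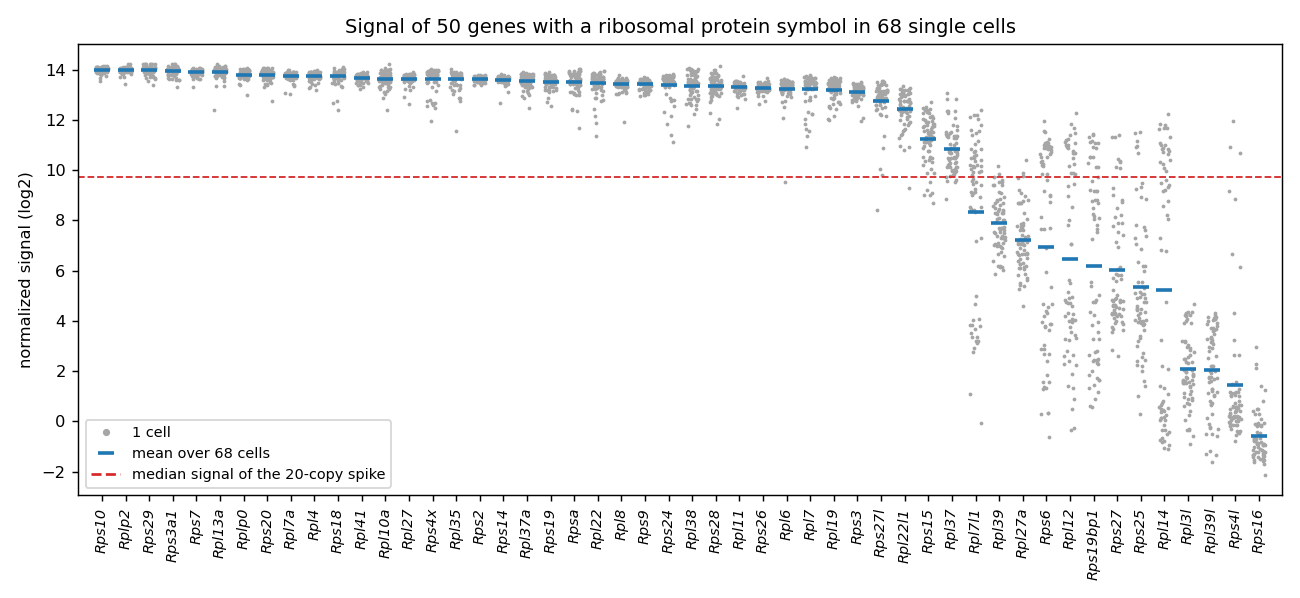
Each point is 1 of 68 cells, each blue line the mean of 1 gene over them and the dashed red line the median signal of the spike RNA added at 20 copies per cell; the y axis is the quantile-normalized log2 signal. The 37 genes on the left have means of 10.84 to 13.99, above the line at 9.72, while the 13 on the right have most cells below it; genes are ordered by mean only for display, since signals of different probe sets are not comparable.

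Most members gave a signal near the top of the array in every cell. Of the 50 genes, 47 reached the 20-copy signal (log2 9.72) in at least 1 cell and entered the comparisons, and 37 had a mean over all 68 cells above it, called bright here. 32 of these 37 were above it in 68 of 68 cells. The exceptions were Rpl6 (67 cells), Rps27l (67), Rpl22l1 (67), Rpl37 (64) and Rps15 (62). Over all genes the mean reached that level in 1084 of the 10789 that entered the comparisons.

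The stalk is the flexible arm of the 60S subunit that recruits elongation factors. The mRNAs of its proteins Rplp2 and Rplp0 were above the 20-copy signal in all 68 cells. Rplp2 ranged from 13.41 to 14.20 over the 68 cells and Rplp0 from 12.98 to 14.07. The mean of Rplp0 was 13.79 ± 0.11 (SD, 24 cells) in E11 AP-like cells and 13.87 ± 0.15 (17 cells) in E16 AP-like cells. On the arrays of the other scaling, it was 13.70 in E12 APs, 13.67 in neurosphere APs and 13.43 ± 0.31 (4 cells) in NICD/p18 APs. Among proteins of the 40S subunit, Rps10 of the subunit's head ranged from 13.55 to 14.14, Rps3, which lines the mRNA entry channel, from 11.96 to 13.49, and Rps20 from 12.74 to 14.07. Among those of the 60S subunit, Rpl11, which with Rpl5 and 5S RNA binds the p53 regulator Mdm2, ranged from 12.45 to 13.73, and Rpl4 from 13.20 to 13.97. Rpsa, the laminin receptor precursor that sits on the 40S head, had a wider range of 11.69 to 14.02, its lowest value being in the unnamed cell E16-76J.

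These values lie where the measurement is compressed. The spike RNAs added at 20, 100 and 1000 copies had median log2 signals of 9.72, 11.95 and 13.09. The step from 20 to 100 copies was 2.23, close to the 2.32 of a proportional signal, but the step from 100 to 1000 was only 1.15 of 3.32. Quantile normalization also fixes the top of every array, so that Rps29 stood at exactly 14.20 in all 3 E12 cells. Differences between bright members are therefore smaller on this scale than in copies of mRNA.

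The signal of the bright members varied little between cells of a class. In the 24 E11 AP-like cells the median SD of the 33 members with a mean of at least 13 was 0.131, against 0.225 for the 74 other genes at that level. Rps10 had the lowest SD of the 37 (0.0623) and Rpl37 the highest (0.796). In the 17 E16 AP-like cells the medians were 0.189 (32 members) and 0.321 (60 other genes), and in the 8 E16 IP-like cells 0.165 (31 members) and 0.264 (65 other genes). This order depended on the scale. On signals as deposited the E11 values were 0.302 and 0.379, with each array scaled to 1 trimmed mean they were 0.448 and 0.468, and with that scaling the order in E16 IP-like cells turned to 0.707 for members and 0.620 for others.

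**Figure D2:**
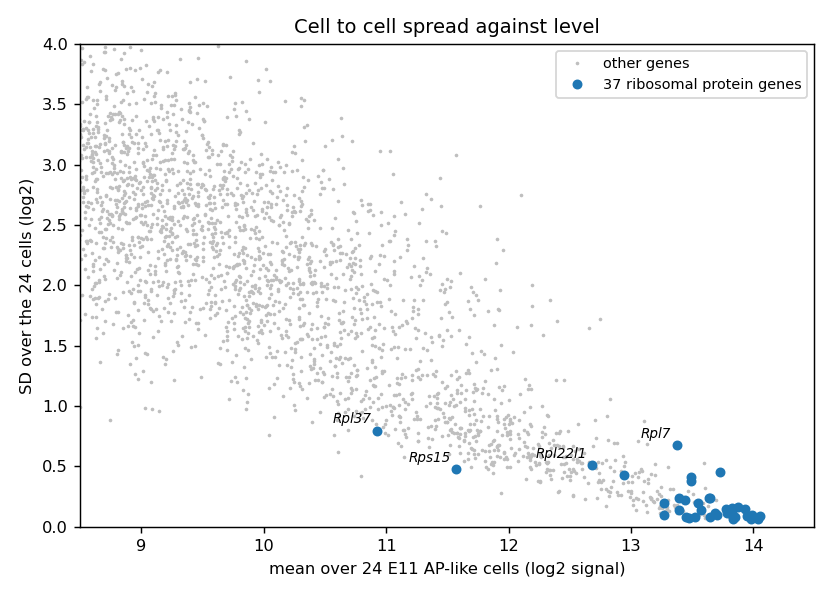
Each point is 1 gene, placed by its mean log2 signal (x axis) and its SD (y axis) over the 24 E11 AP-like cells; blue points are the 37 bright ribosomal protein genes and grey points other genes, with axes cut at a mean of 8.5 and an SD of 4. SD falls with level, most blue points lie at the lower right, and Rpl7 (SD 0.675) stands above genes of its level.

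On quantile values members varied more at E16. The SD was larger in E16 than in E11 AP-like cells for 32 of the 37 bright members (86.5%), against 37 of the 50 other genes with a mean of at least 13 (74%) and 6175 of 10789 genes (57.2%). With arrays scaled to 1 trimmed mean the direction turned: 16 of the 37 had the larger SD at E16, and their median SD was 0.449 at E11 and 0.430 at E16. The ratio was greatest for Rpl6, with an SD of 0.0833 at E11 and 0.962 at E16, but 1 cell, E16-78G, carried much of it, and without that cell the SD at E16 was 0.386. Its values at E11 ran from 13.29 to 13.59 with a median of 13.44, and at E16 from 9.53 to 13.63 with a median of 13.24. 9 of the 17 E16 cells lay below every E11 AP-like cell. Rps27l, Rpl37, Rpl27, Rpl7 and Rps3 had the smaller SD at E16.

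Most pairs of members did not vary together. Over the 666 pairs of bright members the median Pearson correlation across cells was 0.01 in the 24 E11 AP-like cells and 0.13 in the 17 E16 AP-like cells. A set of 4 stood out and was chosen after its values were seen: Rps24 and Rps4x of the 40S subunit, and Rpl7 and Rpl22 of the 60S subunit. Their 6 pairs correlated at 0.84 to 0.95 in E11 AP-like cells and at 0.81 to 0.90 in E16 AP-like cells. Rps24 had a lowest value of 12.14, a median of 13.62 and a highest value of 13.79 at E11, and 11.40, 13.54 and 13.75 at E16. For Rpl7 these values were 10.91, 13.53 and 13.73 at E11, and 11.82, 13.22 and 13.63 at E16. Most cells lay close to the upper end, and a few had low values of all 4 genes.

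The cells with low values were few. The mean log2 signal of the 4 genes was 12.13 in E11-30L and 12.24 in E11-31i, against a median of 13.67 in E11 AP-like cells. It was 12.01, 12.14 and 12.23 in the AP-like cells E16-78O, E16-78C and E16-82O, 12.42 in the IP-like cell E16-76C and 12.02 in the neuron-like E11-30F. Some other members followed the set in part. Of the 33 others, 5 correlated with the mean of the 4 at over 0.5 in E11 AP-like cells (Rpl22l1 at 0.67, Rps18, Rpl4, Rpl10a and Rpl27), as did 1 in E16 AP-like cells (Rpl27 at 0.52), and the median over the 33 was 0.026 and 0.13. Counting members at least 1 below their median over all cells, E16-78C had 7 of the 37 and E16-78O had 6. E11-31i, E11-30F, E16-76C and E16-78G had 5 each. Separate probe sets of a gene gave the same picture where compared. For Rps24, 4 of its 6 probe sets were compared and correlated at 0.97 or more, and those of Rpl7 at 0.93 or more, in both classes. Cell E11-31i had been set aside for low quality in most of the study's own analyses. Without E11-30L and E11-31i the 6 correlations at E11 were 0.22 to 0.62, so the E11 pattern rests largely on these cells, and 1 other member, Rps3a1, then correlated with the set at over 0.5.

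The signal of the lys spike, a bacterial RNA added to each lysate at 1000 copies, moved with these 4 genes. Its correlation with their mean was 0.74 in E11 AP-like cells (0.62 without E11-30L and E11-31i), 0.79 in E16 AP-like cells (0.75 without E16-78C and E16-78O) and 0.69 in the 8 E16 IP-like cells. The median correlation of the 33 other bright members with lys was -0.05 in both AP-like classes, with no value above 0.5 in either. Of the 1084 genes at that level, 5.63% at E11 and 7.84% at E16 exceeded 0.5. The dap spike, added at 100 copies, correlated with the mean of the 4 genes at -0.16 and -0.10. Mki67 correlated with it at 0.68 at E11 and 0.39 at E16. The E11 value includes E11-31i, where Mki67 was -0.43 against a median of 11.81 in E11 AP-like cells. The cells do not make the lys RNA, and its part in the pattern was not tested. The scale also mattered: on deposited signals the 6 pairs had correlations of 0.81 to 0.98 at E11, but the median over all 666 pairs was then 0.73. With arrays scaled to 1 trimmed mean the 6 pairs at E11 ran from -0.11 to 0.94 beside a median of 0.83 over all pairs, so on that scale the set did not stand apart.

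Genes outside the family with the most similar pattern were found as those with the highest lower value of their correlations with the mean of the 4 in the 2 AP-like classes. They were Fem1b (0.77 at E11, 0.74 at E16), Gas5 (0.86 and 0.72) and Hsp90aa1 (0.89 and 0.67). Gas5 is a host gene of small nucleolar RNAs whose transcript carries a TOP start, and Hsp90aa1 encodes a cytosolic chaperone.

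**Figure D3:**
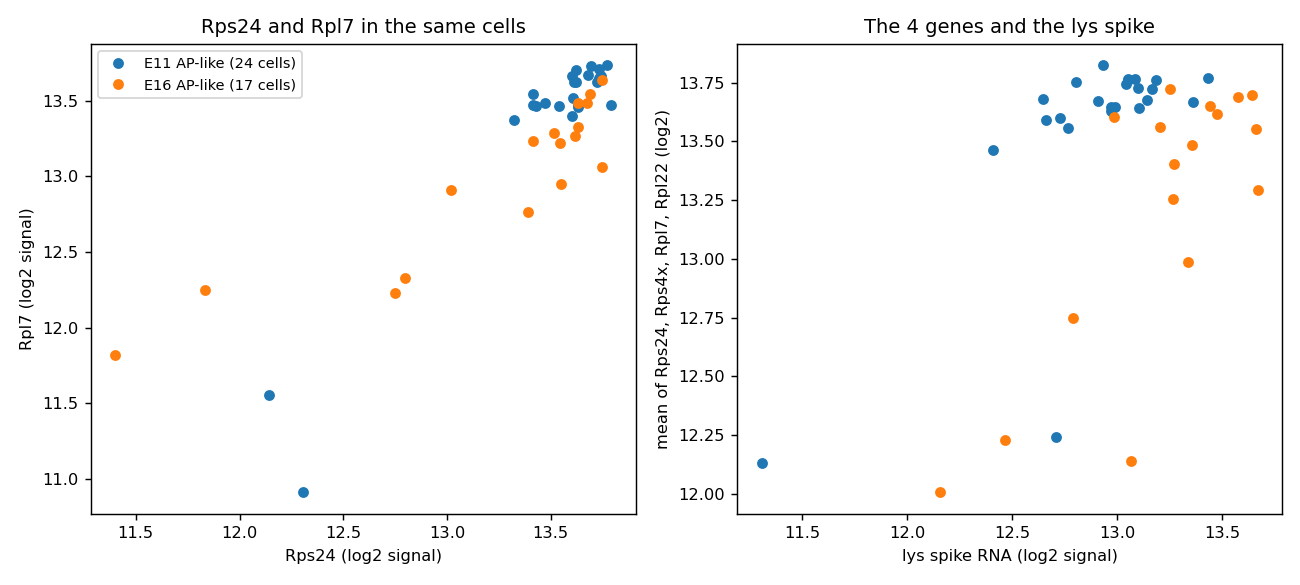
Each point is 1 AP-like cell, blue for 24 cells of E11 and orange for 17 cells of E16; on the left the log2 signal of Rps24 is set against that of Rpl7, and on the right the signal of the lys spike against the mean of Rps24, Rps4x, Rpl7 and Rpl22. Both axes are quantile-normalized log2 signals, and the cells low in both genes on the left, 2 at E11 and several at E16, are those at the bottom on the right, down to 12.13 and 12.01.

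A second set, also chosen after its values were seen, held Rpl38, Rps28 and Rps29, small proteins of which Rpl38 is needed for the translation of certain Hox mRNAs in the mouse embryo. Their 3 pairs correlated at 0.62 to 0.80 in E11 AP-like cells, at 0.74 to 0.87 in E16 AP-like cells and at 0.15 to 0.76 in E16 IP-like cells. On deposited signals they ran from 0.69 to 0.87 at E11, beside a median of 0.73 over all pairs, and from 0.88 to 0.94 at E16, beside 0.59. With arrays scaled to 1 trimmed mean they ran from 0.78 to 0.92 at E11, beside 0.83. At E11 the set thus stood less apart on these scales. Rpl38 had a lowest value of 12.62, a median of 13.51 and a highest value of 14.02 at E11, and 11.76, 13.38 and 13.70 at E16. Here the values formed a continuous range, and leaving out E11-30L and E11-31i gave 0.80 to 0.83 for the 3 pairs on quantile values. Their mean correlated with lys at 0.17 at E11 and -0.13 at E16, and with the number of genes at the 20-copy signal at -0.02 at E11 and 0.74 at E16. Genes most similar to them were Pitpnb (0.53 and 0.57), Snrpg (0.54 and 0.52), a protein of the spliceosome, and Uqcr11 (0.51 and 0.73), a subunit of respiratory complex III. In NICD/p18 APs the 3 genes averaged 13.89 in M5A, 14.02 in M5K, 13.95 in M6C and 13.48 in M6H, the last being lower than each of the E12 and neurosphere APs, as were M5A and, but for 1 neurosphere AP, M6C.

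Stage was the first comparison the design allowed. No member was past the fold between E16 and E11 cells, where 3.78% of all genes were. The median difference of the 37 bright members was -0.10 on the log2 scale, with 31 lower and 6 higher at E16, and that of the 1084 genes above the 20-copy signal was -0.12. Most members lie far above that signal, however. For the 33 members with a mean of at least 13 the median was -0.088, with 28 lower, while for the 50 other genes at that level it was 0.029, with 18 lower. None of these 83 genes was past the fold. The direction was a matter of scaling: the median of the 37 was -0.07 on deposited signals and -0.26 with arrays scaled to lys, but 0.19 with arrays scaled to 1 trimmed mean, when 28 of 37 were higher.

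Within AP-like cells the median difference of the bright members was -0.17, with 31 of 37 lower at E16, against -0.19 and 61.4% lower for the 1084 genes. The 33 members with a mean of at least 13 had a median of -0.13, with 28 lower, and the 50 other genes at that level one of 0.045, with 22 lower. With arrays scaled to 1 trimmed mean the median of the 37 turned to 0.15, with 24 higher, and those of the 33 members and 50 other genes were 0.17 and 0.31. None was past the fold, where 6.21% of all genes were. Of the bright members, Rps15, a protein of the 40S head that contacts tRNA, differed most. Its lowest, median and highest values were 10.52, 11.52 and 12.39 at E11, and 9.01, 10.75 and 12.70 at E16. The ranges overlapped, with 7 of 17 E16 cells below all E11 cells and 2 above, and the means were 11.57 ± 0.48 and 10.84 ± 0.96. The second probe set of Rps15 gave a difference of -1.20, past the value of 1.

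5 further bright members had a lower mean at E16 by more than 0.4. These were Rpl22l1, the paralog of Rpl22 (12.68 ± 0.51 at E11, 12.18 ± 0.75 at E16), Rpl37 (10.93 ± 0.80 and 10.42 ± 0.49), Rpl6 (13.45 ± 0.08 and 12.97 ± 0.96), Rpl22 (13.64 ± 0.24 and 13.21 ± 0.74) and Rpl10a (13.87 ± 0.16 and 13.46 ± 0.36). Without E16-78G the difference of Rpl6 was -0.26 in place of -0.48. Rps19, a 40S protein needed for 18S rRNA maturation, showed the clearest shift of the bulk of cells. At E11 its values lay between 13.44 and 13.87 and at E16 between 12.56 and 13.77, with 11 of 17 E16 cells below every E11 cell. Relative to the median of the 1084 genes, Rps15, Rpl37, Rpl22l1, Rpl6, Rpl22 and Rpl10a were lower on quantile and on deposited values, Rpl10a at only -0.0082 on the latter, whereas Rps19 and Rpsa stood at -0.16 and -0.15 on quantile values and at 0.010 and 0.035 on deposited ones. Rps27l, Rplp0, Rps29 and Rps26 were higher relative to that median on both, by 0.25 to 0.51. The lys and trimmed-mean scalings move all genes of a cell alike and give the deposited value by construction. Taken by themselves, the quantile differences of Rplp0, Rps29 and Rps26 were only 0.082, 0.064 and 0.065. These lie close to the median of 0.045 of the 50 other genes with a mean of at least 13.

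Other genes of the translation apparatus, from lists named by function, differed more than the members did. Of 28 genes of ribosome biogenesis, which act in the nucleolus on pre-rRNA, 7 were past the fold and lower in E16 than in E11 AP-like cells (Nop56, Fbl, Dkc1, Nhp2, Brix1, Gnl3, Ddx21) and none higher, with a median of -1.21. Of 11 subunits of the initiation factor eIF3, 4 were lower (Eif3e, Eif3k, Eif3a, Eif3d), with a median of -0.67. Of 14 other TOP mRNA genes 3 were lower (Npm1, Eif3e, Eif4b), and of 76 mitochondrial ribosomal proteins 7 were lower and 3 higher. Of 9 regulators of TOP mRNAs and ribosome number, Mycn was lower and Rheb higher. Among all genes 3.85% were lower and 2.36% higher past the fold, but among the 1084 bright genes 17.3% were lower. The lists were not matched to the members in level, and the signal is most compressed at the level of the members.

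The IP-like comparison asked how members differ as progenitors turn towards neurons. Between E11 IP-like and AP-like cells 1 member, Rps15, was past the fold, and it was lower, against 11% of all genes in either direction and 4.38% lower. Its values in the 3 IP-like cells were 9.10, 11.11 and 9.01, against 10.52 to 12.39 in the 24 AP-like cells. 41G and 45O were below all AP-like cells, and 42M lay within their range. The difference of means was -1.83 and that of the second probe set -4.75. Without cell 41G or without cell 45O, 2 members were past the fold in place of 1.

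The median of the bright members was -0.15 and that of the 1084 genes -0.14. For the 33 members with a mean of at least 13 it was -0.14, and for the 50 other genes at that level 0.049. The median of the bright members was 0.068 with arrays scaled to 1 trimmed mean. Rpsa and Rpl6 were lower in all IP-like cells than in any AP-like cell, a separation found in 0.94% of the genes that reached the signal. Rpsa was 13.54, 13.51 and 12.98 against 13.58 to 14.02, and Rpl6 was 12.96, 13.10 and 13.26 against 13.29 to 13.59. The gaps at the edges were therefore small, though both held for all 3 cells. These values share the E11 AP-like cells with the stage comparison.

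At E16 the classes were close in the signal of the members. The E16 IP-like cells carried 57.3% of AP markers at the 20-copy signal, against 30.6% in E11 IP-like cells. Of IP markers they carried 70%, against 8.24% in E16 AP-like cells. No member was past the fold between the 8 IP-like and 17 AP-like cells, against 6.19% of all genes, and the median was 0.038 for the bright members and for the 1084 genes alike. Rps15 was 10.87 ± 1.35 in IP-like and 10.84 ± 0.96 in AP-like cells, the values running from 8.67 to 12.27 and from 9.01 to 12.70. Of the bright members, Rpl22l1 had the greatest positive difference, 0.28, and Rpl38 the greatest negative, -0.25, each with overlapping cells. Of the eIF3 subunits, Eif3a, Eif3l and Eif3d were higher past the fold in IP-like cells, as were 3.42% of all genes, and none was lower.

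**Figure D4:**
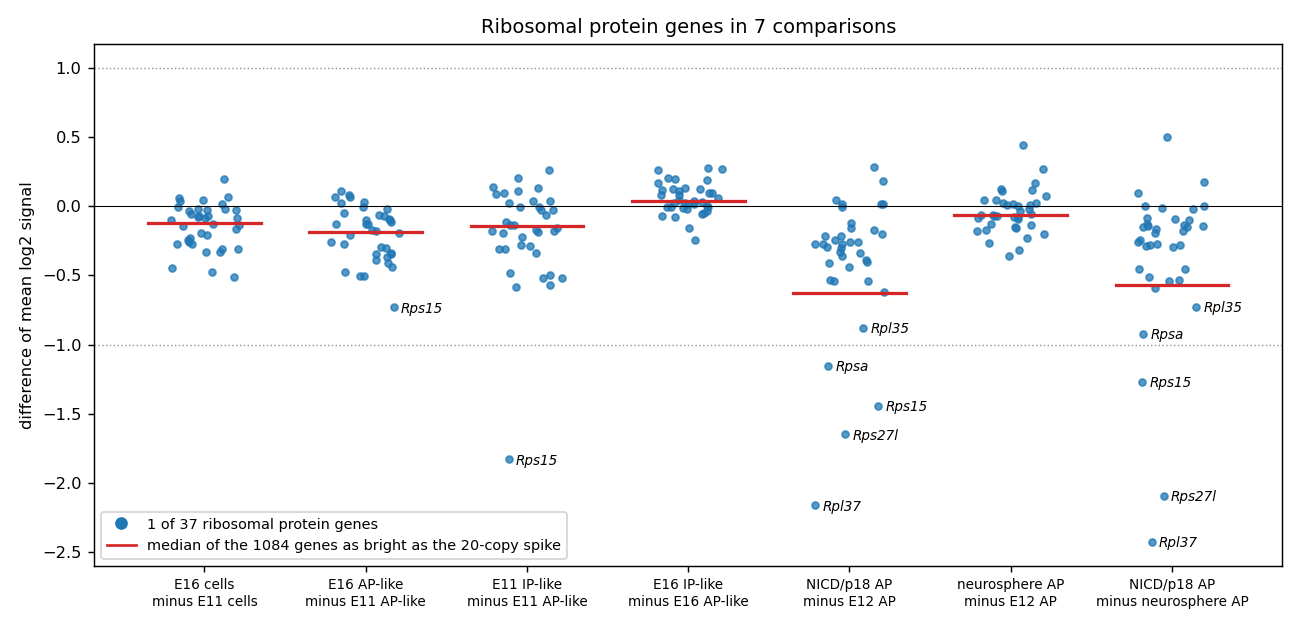
Each blue point is the difference of mean log2 signal of 1 of the 37 bright members in 1 of 7 comparisons, named below the axis as first minus second group; red lines are medians of the 1084 genes as bright as the 20-copy spike and dotted lines mark differences of 1 and -1. In the first 4 comparisons all points but 1, Rps15 at -1.83, lie between -0.73 and 0.28, and in those of NICD/p18 APs most points lie above the red line while Rpl37, Rps27l and Rps15 lie below -1.

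NICD/p18 APs, checked to lack Ki67, were compared with E12 and neurosphere APs. They differed from E12 APs in age, NICD, p18 and electroporation, and the neurosphere APs had been cultured. These factors cannot be told apart from the absence of a cell cycle. 6 of the 47 members were lower past the fold in NICD/p18 than in E12 APs and none was higher, against 15.7% of all genes in either direction and 10.5% lower. They were Rpl37, Rps27l, Rps15, Rpsa, Rpl7l1 and Rps19bp1. The call of Rpl7l1 rested on a single low cell, as its values given with the paralogs below show. The median of the bright members was -0.28, with 31 of 37 lower, and that of the 1084 genes was -0.62. At the level of most members the values were close: -0.27 for the 33 members with a mean of at least 13, with 27 lower, and -0.30 for the 50 other genes, with 32 lower. On deposited signals both were -0.49. Among those 1084 genes 38.3% were lower past the fold, and among the 83 with a mean of at least 13 it was 8.43%.

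Of the bright members, Rpl37, a 60S protein, differed most. In the NICD/p18 APs M5A, M5K, M6C and M6H it was 9.53, 11.34, 9.94 and 10.47, against 12.27, 12.82 and 12.35 in E12 APs and 12.83, 13.07 and 12.34 in neurosphere APs. The groups did not overlap, and the differences of means were -2.16 and -2.42. In the E11 AP-like cells, on arrays scaled otherwise, it ran from 9.59 to 12.34.

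Rps27l, a paralog of Rps27 that p53 induces, split the NICD/p18 APs. It was 10.06 in M5A and 9.80 in M6H but 12.81 in M5K and 12.61 in M6C, against 13.49, 12.38 and 13.03 in E12 APs and 13.21, 13.55 and 13.48 in neurosphere APs. The cells with the higher values were the 2 with 8 neuron markers, whose part in the split was not tested. All 3 probe sets of the gene gave differences from E12 of -1.57 to -1.70.

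Rpsa was 12.42, 13.09, 12.35 and 12.40 in the NICD/p18 APs, below each of the E12 values of 13.82, 13.55 and 13.78. Rps15 was 11.40, 11.96, 10.35 and 9.52, against 11.92, 12.32 and 12.50, so that M5K overlapped E12. Rpl35 missed the fold with a difference of -0.88, and its value rested on 1 cell: it was 11.57 in M5A and 13.14 to 13.79 in the others, against 13.83 to 13.85 in E12. M5A had 8 of the 37 members at least 1 below their median over all cells, the most of any cell. That median spans arrays of both scalings. Below the median of the NICD/p18 APs alone by that step, M5A had only Rpl35, Rpl8 and Rps27l.

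13 of the 37 bright members were lower in every NICD/p18 AP than in any E12 AP, where 14.7% of all genes that reached the signal were. Besides Rpl37, Rpsa and Rpl35 these were Rplp2, Rps29, Rpl4, Rps18, Rpl10a, Rps4x, Rps2, Rpl22, Rpl8 and Rpl38. Rpl7, a 60S protein, was higher in every NICD/p18 AP, as were 9.18% of all genes. It was 13.71, 13.60, 13.69 and 13.79 against 13.47, 13.54 and 13.53, but on deposited signals its difference of means turned from 0.18 to -0.11. Rpl41, a very short basic peptide of the ribosome, was 0.28 higher on quantile values and -0.030 on deposited signals.

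**Figure D5:**
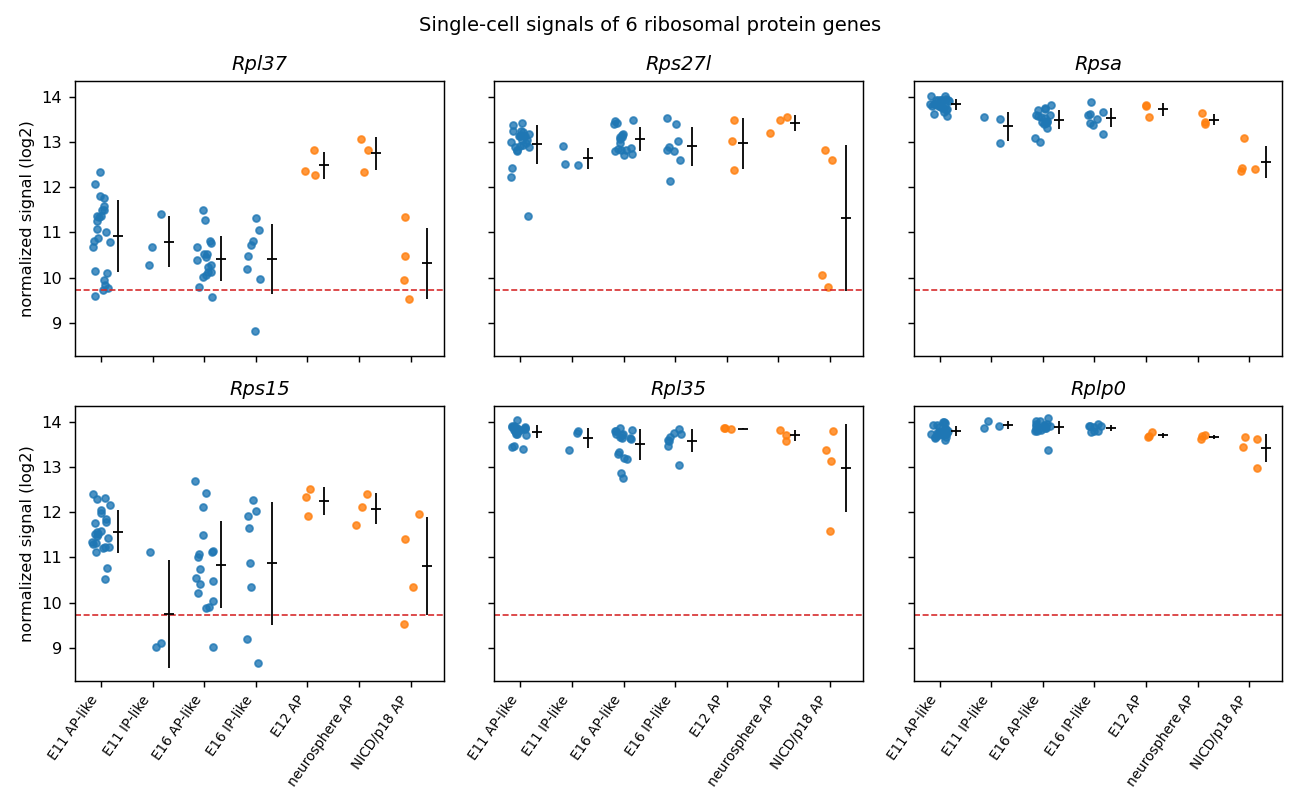
Each point is 1 cell and each black mark the mean with its SD over cells, for 6 members in 7 groups on the x axis; the y axis is the quantile-normalized log2 signal and the dashed line the 20-copy spike at 9.72. Blue and orange mark arrays scaled differently before deposit, and in the last group all 4 cells of Rpl37 and Rpsa, 3 of Rps15 and 2 of Rps27l lie below every other orange point of that gene, while Rplp0 lies between 12.98 and 13.66.

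Between neurosphere and E12 APs none of the bright members was past the fold, where 12.8% of all genes were, 5.67% higher and 7.16% lower in neurospheres. Below that level, Rpl14 was higher past the fold at 11.68, 11.82 and 10.39 in neurospheres against 12.25, 0.05 and 9.16. Rps19bp1 was lower past the fold at 8.67, 3.83 and 7.66 against 11.44, 10.51 and 10.52. The Rpl14 groups overlapped, and its difference rested on the E12 cell at 0.05. Rps10, Rpl10a, Rpl35, Rps28, Rpl7 and Rps3 were lower in all 3 neurosphere APs than in any E12 AP (10.4% of all genes), with Rpl10a at -0.36, and the greatest difference of a bright member was 0.44, for Rps27l. Against neurosphere APs, 5 members were lower past the fold in NICD/p18 APs (Rpl37, Rps27l, Rps15, Rpl7l1, Rpl14) and none was higher, where 9.32% of all genes were lower and 14.4% differed either way. 9 bright members were lower without overlap, where 12.9% of genes were, and Rpl7 was higher without overlap, where 7.29% were. These 3 comparisons share cells pairwise and are not independent.

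The lys spike differed between these groups, at 13.34 to 13.90 in NICD/p18 APs and at 12.02 to 12.73 in 5 of the 6 other cells, the sixth being an E12 AP that lay between. With arrays scaled to lys, 29 of the 37 bright members were past the fold and lower in NICD/p18 than in E12 APs, and 36 of 37 against neurosphere APs, while of all genes 15.9% and 17.7% were. That scaling moves all genes of a cell alike, and the medians of the 1084 genes were then -1.32 and -1.60, beside -1.13 and -1.49 for the bright members. Its part in the difference was not tested. Rpl37, Rps27l, Rps15 and Rpsa were lower than the median of the 1084 genes in both comparisons, by 0.36 to 1.86 on quantile and by 0.46 to 1.90 on deposited values. Without M5K and M6C, a check added after the data were seen, 7 members were lower than in E12 APs, Rpl35 being the one added, and 7 were lower than in neurosphere APs, with Rpl35 and Rpsa added, where 10.5% and 9.33% of all genes were lower.

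Lists of related genes differed in the same cells. In NICD/p18 against E12 APs, 11 of 12 cell cycle genes were lower past the fold, the E12 APs having been chosen as positive for Ki67. Of 28 genes of ribosome biogenesis 12 were lower and none higher, with a median of -3.94, and of 76 mitochondrial ribosomal proteins 26 were lower and none higher, with a median of -1.99. These shares stand beside 10.5% of all genes and 38.3% of the 1084 bright genes. Of the eIF3 subunits 7 of 11 were lower. The regulators gave a median of 0.15, with Eif4ebp1 and Mycn lower past the fold. 4 housekeeping genes gave a median of 0.09 and none past the fold.

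Paralogs that replace a ribosomal protein in certain tissues were for the most part at or near background. Rpl3l, the form of striated muscle, had a highest value of 4.68 and Rpl39l, the form of male germ cells, stayed below that, both far below the 20-copy signal in all 68 cells. Rps4l reached it in 3 cells, at 11.97 in the neuron-like E11-32J, 10.93 in an E12 AP and 10.69 in an E16 AP-like cell. Rpl7l1, a factor of 60S assembly related to Rpl7, did so in 32 of 68 cells, in 12 of 30 at E11, 12 of 28 at E16, 2 of 3 at E12, 3 of 3 in neurospheres and 3 of 4 in NICD/p18 APs. Its signal was either high or low within a group, as in NICD/p18 APs at 3.77, 11.40, 9.92 and 12.39. The lower mean of Rpl7l1 there than in E12 APs rested on the cell at 3.77, which also entered the comparison with neurosphere APs.

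Rpl22l1 and Rps27l, by contrast, were bright in nearly all cells. The lowest value of Rps27l, 8.40, was in the neuron-like E11-30F, and that of Rpl22l1, 9.30, was in E16-80K, the neuron-like cell of E16, where Rps27l was 10.87. In the other neuron-like cells, E11-32J and E11-43D, Rps27l was 12.61 and 12.21 and Rpl22l1 12.31 and 12.67. Both genes were thus low in some but not in all cells of this kind, with 4 neuron-like cells in all.

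10 members passed the filter but had a mean below the 20-copy signal. Rps6, the 40S protein phosphorylated downstream of mTOR, reached it in 28 of 68 cells, Rpl12 in 23, Rpl14 in 21, Rps27 in 8, Rps25 in 6, Rpl27a in 3 and Rpl39 in 2. In most of them the cells fell into high and low values: Rps6 had a lowest value of -0.61, a median of 8.58 and a highest value of 11.94 in the 30 E11 cells, and 0.31, 8.19 and 11.57 in the 28 E16 cells. Rps16 had a highest value of 2.96. These genes encode constitutive parts of the ribosome, and the signals of different probe sets cannot be set against each other, so no lower amount of these mRNAs is implied.

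Several members had probe sets that differed. Those of Rps27l and Rps28 moved together, as did the 5 compared of the 6 of Rpl35. The 4 of Rpl13a, by contrast, gave differences of -0.17, -0.25, -1.79 and -3.27 between NICD/p18 and E12 APs, and correlated at -0.32 to 0.93 in E11 AP-like cells. The brightest stood for the gene here. Of the 110 probe sets that named several genes, 83 had a mean above the 20-copy signal, and their median difference was -0.10 for E16 against E11 cells and -0.20 for NICD/p18 against E12 APs, beside -0.10 and -0.28 for the bright members.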

How the data were processed

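Single-cell cDNA was amplified by PCR after bacterial spike RNAs (lys at 1000 copies, dap at 100, phe at 20, thr at 5) had been added to the lysate, and hybridized to Affymetrix arrays. The deposited files hold linear signal intensities made by the authors with MAS5, 1 value per probe set. The tables name 1 gene for 34958 probe sets, several for 932 and none for 9211. The 68 arrays were quantile normalized together and log2 transformed (Python 3.11.15, numpy 2.4.6, pandas 2.3.3). The study's methods also name quantile normalization, but its arrays included E14 cells that were not used here, so values need not match. Low signals were kept, and a gene entered if at least 1 cell reached the median phe signal (intensity 842). The probe set with the highest mean stood for a gene. Members named were up to 10 in each direction with the largest differences per comparison, all paralogs and a fixed set of known role; the sets varying together, and the check without E16-78G, were chosen later. E11 and E16 cells were clustered on the fixed markers into 3 and 4 clusters, numbers set after seeing the data. No 2 arrays of 2278 pairs were identical, the highest correlation being 0.645. With 1 cell per array the number of arrays limits the precision, and nothing separates technical from biological spread. Steps were tested on simulated data. Members and lists were chosen with earlier results of these data known.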

Additional observations from a re-analysis of the deposited data

Results flagged for a closer look

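Of 70 values tested for a cell far from the others of its group, 11 passed a cut that about 1 in 20 independent values would pass by chance. The 70 values come from the same few cells and are not independent, so the count cannot be set against that rate. The measure is the gap between the extreme cell and its nearest neighbour over the whole range of the group. In the 4 NICD/p18 APs, M5A was low for Rpl27 (13.48 against 13.77 to 13.79, gap share 0.908), Rpl8 (11.91 against 13.02 to 13.13, 0.909) and Rpl11 (12.45 against 13.28 to 13.35, 0.919). M6H was low for Rps29 (13.66 against 14.11 to 14.14, 0.936) and Rpl38 (13.48 against 13.87 to 13.93, 0.868), and M5K was high for Rpsa (13.09 against 12.35 to 12.42, 0.915). In the 8 E16 IP-like cells, E16-82P was low for Rpl37a (12.46 against 13.29 to 13.65, 0.703) and Rpl35 (13.03 against 13.46 to 13.84, 0.528), E16-75O for Rps29 (13.66 against 13.91 to 14.11, 0.548), E16-82H for Rps20 (13.62 against 13.82 to 13.98, 0.565) and E16-76C for Rpl22 (12.43 against 13.21 to 13.87, 0.539).

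Rpl6 and Rpl27 differed in opposite ways between IP-like and AP-like cells at the 2 stages. Every E11 IP-like cell was below the E11 AP-like mean of Rpl6 (mean difference -0.34) and every E16 IP-like cell above the E16 one (0.26), but without E16-78G, the AP-like cell with the lowest Rpl6, the E16 difference was 0.049 and 5 of 8 IP-like cells were above the mean. For Rpl27 the values were -0.19 and 0.13. The difference between stages was not tested.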

How the results depend on the processing

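No paired analysis was possible because the labels carry no replicate numbers that tie cells of different groups. Scaling had the widest effect on the median difference over the 47 members. Scaled to lys it was -0.30 for E16 against E11 cells, -0.44 for their AP-like cells, -0.43 for E11 and 0.28 for E16 IP-like against AP-like cells, -1.16 for NICD/p18 and 0.39 for neurosphere against E12 APs, and -1.49 for NICD/p18 against neurosphere APs. Scaled to 1 trimmed mean it was 0.15, 0.14 and 0.068 for the first 3 of these, 0.080 for neurosphere against E12 and -0.57 for NICD/p18 against neurosphere APs. On deposited signals it was -0.29 for E11 IP-like against AP-like cells, 0.080 for neurosphere against E12 and -0.57 for NICD/p18 against neurosphere APs. The count of members past the fold in E16 against E11 AP-like cells, 0 on quantile values, was 1 on deposited signals (Rps15) and 2 scaled to lys. Scaled to lys it was 31 for NICD/p18 against E12 and 38 against neurosphere APs. With a fold of 2 it was 0 for E11 IP-like cells, 2 for NICD/p18 against E12 and 3 against neurosphere APs. For neurosphere against E12 APs it was 1 with values floored at the 20-copy signal and 4 with the mean over all probe sets. The median SD of the bright members in E11 AP-like cells was 0.449 with trimmed means.

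Leaving out each cell of the small groups in turn gave medians of -0.20 to -0.14 and counts of 1 to 2 for E11 IP-like cells, -0.37 to -0.27 and 5 to 7 for NICD/p18 against E12 APs, -0.07 to -0.04 and 2 to 2 for neurosphere against E12 APs, and -0.27 to -0.17 and 4 to 7 for NICD/p18 against neurosphere APs. The other 138 values moved by less than the spread over cells or, for counts, stayed within 1.5 times. Signals near the top of the array are compressed, which limits how large a difference between bright members can appear.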
